A study of Mus musculus with 14 samples.

Results

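The S100 genes described here are S100a1, S100a3, S100a4, S100a6, S100a8, S100a9, S100a10, S100a13, S100a14 and S100b, each taken from the deposited tables where the gene symbol matched exactly. They are 10 of the 54532 genes in the count table, which lists 17 S100 genes in all. Polyadenylated RNA of skeletal muscle from male FVB/N mice was sequenced in 14 libraries of 4 groups, to compare how muscle with and without endothelial c-Myc overexpression responds to a western diet. EC-Myc OE mice (OE) carried a human c-Myc transgene under a tetracycline operator (tetO-MYC) and the Cdh5-tTA transactivator, whose promoter is active in endothelial cells. Their CT littermates carried tetO-MYC and lacked the transactivator. Doxycycline diet, which keeps the transgene off, was given to the mice and withdrawn between 4 and 6 weeks of age. Mice then received a control diet (CTD) or a high-fat western diet (WD), for 20 weeks by the labels, although another passage of the study names a shorter exposure for the transcriptome. The transgene lies on the Y chromosome, so OE animals were male. The groups held 3 libraries for CT-CTD, 3 for CT-WD, 4 for OE-CTD and 4 for OE-WD. Soleus and gastrocnemius muscles were taken, and the labels do not say which muscle gave a library.

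S100 proteins are small proteins with a pair of EF-hand motifs, mostly dimers, that expose a surface for partner proteins when calcium binds. Inside cells they regulate calcium pumps and channels, the cytoskeleton and annexins, and several are also secreted and act on receptors such as Ager and Tlr4. In striated muscle S100a1 is the best known member, as a regulator of the ryanodine receptor and of the calcium pump of the sarcoplasmic reticulum, while others belong mainly to connective tissue, glia, leukocytes or epithelia.

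The total count per library was between 24101226 and 25054855 in CT-CTD, between 21833839 and 26518734 in CT-WD, between 22083340 and 28519159 in OE-CTD and between 22033140 and 27698046 in OE-WD. A count is the number of reads assigned to a gene, and levels of 1 gene across libraries are given as CPM, counts per library total adjusted by TMM factors. Levels of different genes are compared as the authors' FPKM, which also divide by gene length. Differences were tested with edgeR's quasi-likelihood test on the counts of all 14 libraries, for the 15458 genes that passed a filter on low counts, with Benjamini-Hochberg adjustment over those genes. A gene was called at an adjusted p under 0.05 and a fold change over 1.5. A count at an unadjusted p under 0.05 and the same fold is given beside it. The libraries were muscle by their markers, since the skeletal actin gene Acta1 had between 26373 and 38069 FPKM and none of the 4 muscle markers (Ckm, Acta1, Mb, Tnnt3) was called in any comparison.

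Some libraries stood apart from their group. Between OE-CTD 4 and the other OE-CTD libraries the chi-square per degree of freedom of the counts was between 37.0 and 43.0, against 7.81 to 10.6 among OE-CTD 1 to 3. Between OE-WD 4 and the other OE-WD libraries it was between 38.9 and 42.8, against 8.52 to 15.2 among OE-WD 1 to 3. These 2 libraries also had the lowest TMM factors, 0.888 and 0.899, against 0.945 to 1.07 elsewhere. CT-WD 1 and CT-WD 3 differed most within CT, with a chi-square per degree of freedom of 50.8. The descriptions of OE-CTD 1 to 3 share a number, and those of OE-WD 1 to 4 share another, and what such a number marks is not given in the sources used here. Separate animals are therefore not documented for these libraries, and the p-values measure the spread between the libraries, which may in part be technical. A fit without OE-CTD 4 keeps only OE-CTD libraries that share a number. A legend in the study also gives group sizes by diet that do not match the labels, and groups are used here as labelled. If the names CT-WD and OE-CTD were exchanged, the comparison of OE-CTD with CT-CTD and that of CT-WD with CT-CTD would change places, as would those of OE-WD with CT-WD and with OE-CTD, and the interaction would keep its values. The sizes in that legend would be met with these names exchanged. The summed-count ratio of S100a3 for OE-WD against CT-WD, 38.0 as labelled, would then be 6.72. The fold of S100a14 in that comparison, 1.85 as labelled, would be 2.53. The study prints fold changes of both genes for OE-WD relative to CT-WD. Those printed values lie closer to 6.72 and 2.53 than to 38.0 and 1.85. Whether the names were exchanged was not tested. Each difference by genotype or diet given below therefore holds for the names as labelled.

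The members spanned a wide range of levels, and only 4 of the 10 were well measured, defined as at least 50 counts in every library. S100a1 had a mean of 143.8 FPKM over the 14 libraries (115.6 to 185.2) and between 1518 and 2885 counts. S100a6, also called calcyclin, had a mean of 25.3 FPKM and between 425 and 1210 counts. S100a10, the light chain of the annexin A2 complex, which has lost calcium binding, had a mean of 19.8 FPKM and between 326 and 802 counts. S100a13, known for the export of growth factors that lack a signal peptide, had a mean of 11.5 FPKM and between 133 and 297 counts. Of these 4, S100a1 was the highest and S100a13 (8.09 to 14.9 FPKM) the lowest in every library. S100a6 (14.3 to 34.6 FPKM) and S100a10 (14.6 to 25.9 FPKM) changed places, with S100a10 the higher in CT-CTD 3 (16.8 against 14.3 FPKM) and CT-WD 3 (25.6 against 20.5 FPKM).

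The other 6 members were low-count, with a median under 50 counts. S100b, the family member of glia and Schwann cells, had a mean of 1.39 FPKM and between 19 and 93 counts. S100a14, an epithelial member, had a mean of 0.366 FPKM and between 0 and 38 counts. Both passed the filter on low counts and were tested. S100a9 and S100a8, which together form calprotectin in neutrophils, had means of 0.342 and 0.226 FPKM with at most 18 and 16 counts in a library. S100a4, a member known from fibroblasts and motile cells, had a mean of 0.156 FPKM and at most 5 counts. S100a3, a member of the hair shaft, had a mean of 0.0361 FPKM and between 0 and 38 counts. The last 4 did not pass the filter, so 6 of the 10 members were tested. The level that 3 counts give, the upper limit that a count of 0 allows, was between 0.0989 and 0.153 CPM, and like every counting interval here it covers counting error only.

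**Figure D1:**
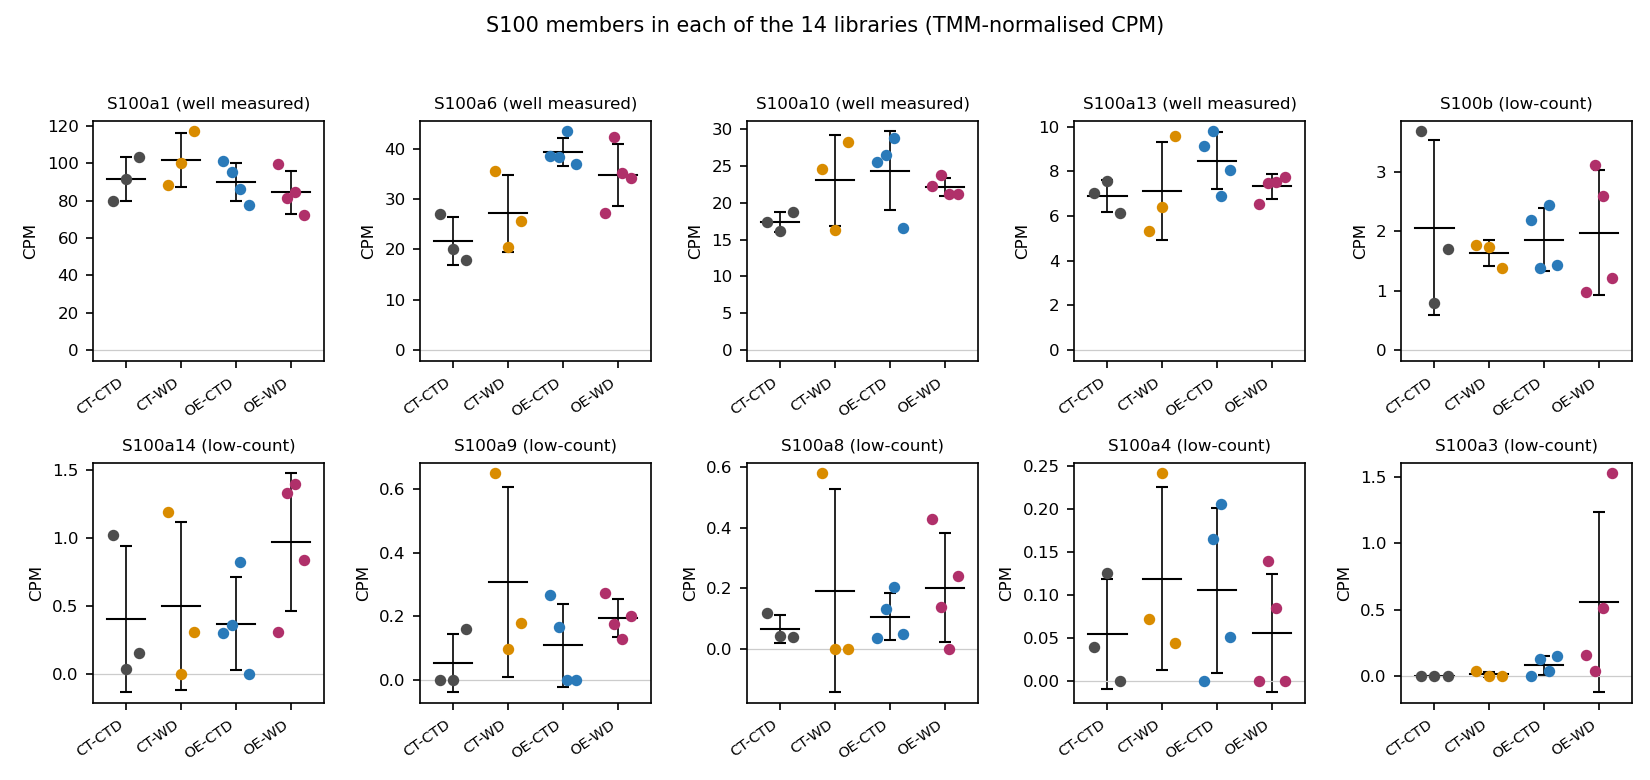
Each panel shows 1 member, with CPM after TMM normalization on the vertical axis, 1 point per library in each of the 4 groups, and the group mean with its SD (n = 3 or 4) as a line and bars. S100a6 lies between 18.0 and 27.0 CPM in CT-CTD and between 36.9 and 43.4 CPM in OE-CTD, while S100a3, S100a4, S100a8 and S100a9 lie near 0 in most libraries.

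S100a1 made up between 64.4% and 79.3% of the summed FPKM of the 10 members. The sum itself was between 175.9 FPKM in CT-CTD 1 and 247.7 FPKM in CT-WD 3. The highest S100a1 share was in CT-CTD 3 and the lowest in OE-WD 2, the library with the second highest S100a6 level. Across libraries the highest CPM was 1.62 times the lowest for S100a1, 2.42 times for S100a6, 1.79 times for S100a10 and 1.83 times for S100a13. For S100b that ratio was 4.63.

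Few members passed the test in any comparison. In OE-CTD relative to CT-CTD, 1 of the 6 members tested was called, S100a6, at the adjusted and at the unadjusted level, where 1.91% and 7.12% of all genes tested were called. In OE-WD relative to CT-WD, 0 members were called by edgeR's test at either level, against 0.563% and 5.74% of all genes. In CT-WD relative to CT-CTD, 0 members were called at either level, against 0% and 3.05% of all genes. In OE-WD relative to OE-CTD, 0 members were called at either level, against 0.00647% and 1.37% of all genes. The diet by genotype interaction, which tests whether the diet response differs between OE and CT, called 0 members at either level, against 0% and 2.7% of all genes. DESeq2's Wald test and limma on log2(FPKM + 1) likewise called S100a6 in OE-CTD against CT-CTD and 0 members in the other comparisons.

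The direction of the members as a group was also described, with no test. The median log2 fold change of the 6 members tested was 0.24 for CT-WD against CT-CTD, where all genes had 0.01, and 5 of the 6 were higher in CT-WD. For OE-WD against OE-CTD the median was -0.12, with all genes at 0.00, and 2 of the 6 were higher in OE-WD. The remaining medians were 0.16 for OE-WD against CT-WD and 0.13 for OE-CTD against CT-CTD, with -0.25 for the interaction, where all genes lay between -0.01 and 0.01. These comparisons share groups, so their medians are not independent of each other. Over the 23 settings tried, the sign of a member's log2 fold change was constant for 3 of the 6 in CT-WD against CT-CTD (S100a1, S100a6, S100a10), for 3 in OE-CTD against CT-CTD (S100a6, S100a10, S100a13) and 3 in OE-WD against CT-WD (S100a1, S100a6, S100a14). It was constant for all but S100b in OE-WD against OE-CTD.

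**Figure D2:**
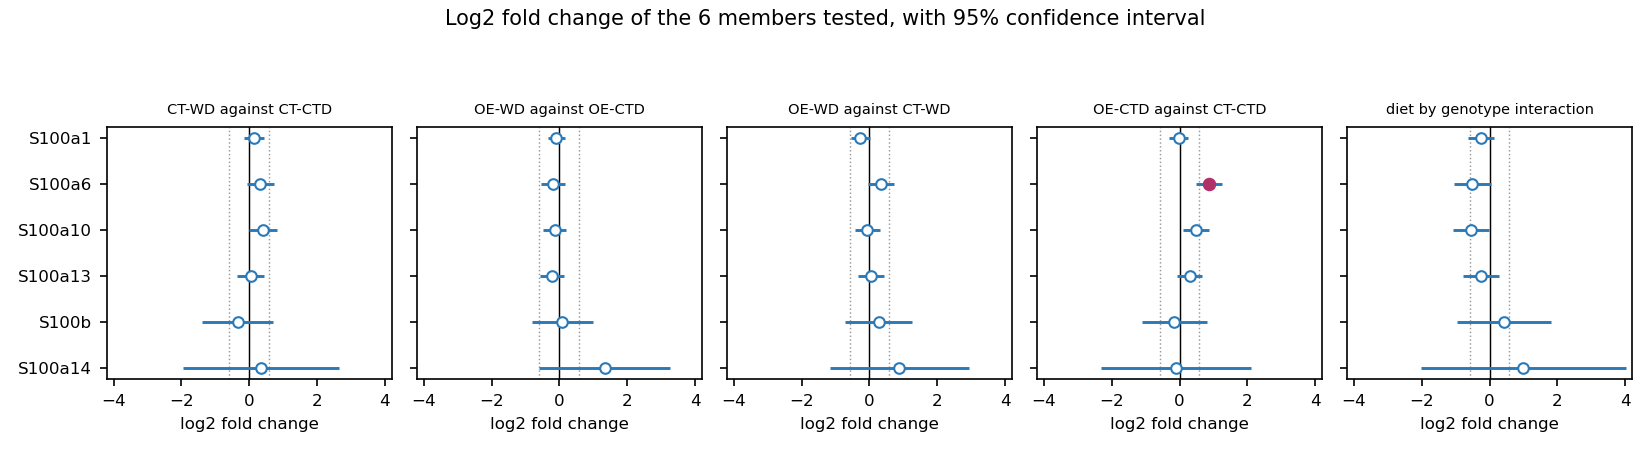
Each panel is 1 comparison, with the log2 fold change of the 6 members tested on the horizontal axis, bars for the 95% confidence interval, dotted lines at a fold of 1.5 and a filled point where the member was called. S100a6 in OE-CTD against CT-CTD (0.86, interval 0.47 to 1.25) is the filled point, and the widest intervals are those of S100a14 (-2.02 to 4.01 for the interaction).

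S100a6 (ENSMUSG00000001025, protein coding, plus strand of chromosome 3 in GRCm38, 90612882 to 90624181) binds annexins and the calcyclin-binding protein Cacybp and is abundant in fibroblasts and other dividing cells. Its level was 27.0, 20.0 and 18.0 CPM across CT-CTD 1 to 3 and 35.5, 20.5 and 25.5 CPM across CT-WD 1 to 3. It was 38.6, 38.4, 43.4 and 36.9 CPM across OE-CTD 1 to 4 and 27.2, 42.4, 35.2 and 34.2 CPM across OE-WD 1 to 4. Every OE-CTD library was above every CT-CTD library, and the OE-CTD libraries were the most uniform of the 4 groups. The groups on WD overlapped through CT-WD 1 alone, which lay above OE-WD 1, OE-WD 3 and OE-WD 4. No other member had groups that did not overlap in any comparison, and in OE-CTD against CT-CTD 15.5% of all genes tested had such groups. In the other comparisons of 2 groups that share was 9.63% for CT-WD against CT-CTD, 11.6% for OE-WD against CT-WD and 4.08% for OE-WD against OE-CTD.

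S100a6 rose in OE-CTD, to 39.4 ± 2.82 CPM (SD, n = 4), relative to CT-CTD with 21.7 ± 4.73 CPM (SD, n = 3). If the names CT-WD and OE-CTD were exchanged, this would be the diet difference in CT. The log2 fold change was 0.86 (with a standard error of 0.182 and an adjusted p of 0.0238 in edgeR's quasi-likelihood test with Benjamini-Hochberg adjustment), which is 1.82-fold with a 95% interval of 1.39 to 2.37. The adjusted p depended on single libraries. It was 0.104 without CT-CTD 2 (log2 fold change 0.81), 0.131 without CT-CTD 3 (0.74), 0.0597 without OE-CTD 2 (0.87) and 0.0744 without OE-CTD 3 (0.81) in the same test and adjustment, whereas the direction held with every library left out in turn. Over all 23 settings the log2 fold change was between 0.74 and 1.04, and S100a6 was called in 18 of them. Without OE-CTD 4 and OE-WD 4 together, an alternative chosen after seeing the data, the log2 fold change was 0.89 with an adjusted p of 0.0344.

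On WD the genotypes were closer. The mean of S100a6 was 34.8 ± 6.21 CPM (SD, n = 4) with overexpression and 27.2 ± 7.61 CPM (SD, n = 3) without. The log2 fold change was 0.35 (95% interval -0.03 to 0.73, adjusted p = 0.337 in edgeR's test with Benjamini-Hochberg adjustment). This comparison passed the call rule without CT-WD 1, the highest of its group, with a log2 fold change of 0.59 and an adjusted p of 0.0468 in the same test, in a fit that called 905 genes in all, whereas it was 0.19 without CT-WD 2. The diet differences were 0.33 in CT and -0.18 in OE on the log2 scale. Whether the genotype difference depends on diet was tested by the interaction, -0.51 with a 95% interval of -1.05 to 0.03 and an unadjusted p of 0.0618 in edgeR's test, and was not called. It was -0.27 without CT-WD 1. The interaction was called at the unadjusted level without CT-CTD 1 (-0.70), CT-WD 2 (-0.67) or OE-WD 2 (-0.62), and in no setting at the adjusted level.

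Markers of connective tissue and macrophages were also higher in OE-CTD than in CT-CTD, with calls by edgeR at the unadjusted level only. That level called 7.12% of all genes tested in this comparison and 5.74% in OE-WD against CT-WD. It called 3.05% in CT-WD against CT-CTD and 2.7% for the interaction. The 8 fibroblast and tendon markers summed to 90.6, 78.7 and 67.1 FPKM in CT-CTD 1 to 3 and to 187.6, 221.9, 204.5 and 132.5 FPKM in OE-CTD 1 to 4. In CT-WD 1 to 3 the sum was 201.7, 69.5 and 68.6 FPKM, and in OE-WD 1 to 4 it was 145.7, 336.6, 194.4 and 151.1 FPKM. Dcn was the most abundant of these markers, with a mean of 49.3 FPKM, and none of the 8 was at 0 in any library. The highest value of CT-CTD, CT-WD and OE-WD was in the library with the highest S100a6 level of that group, whereas in OE-CTD the sum was highest in OE-CTD 2 and S100a6 in OE-CTD 3. Of the 8 markers, 7 were called higher in OE-CTD than in CT-CTD at the unadjusted level and 0 at the adjusted level in edgeR's test (median log2 fold change 1.13), and DESeq2 called 2 and limma 0. All 8 were also higher in OE-WD than in CT-WD (median 0.62, 2 called at the unadjusted level). They were likewise higher in CT-WD than in CT-CTD (0.55, 1 called at that level). The median was 0.08 for OE-WD against OE-CTD. For the interaction it was -0.42, with 0 of 8 higher and 1 called lower at the unadjusted level. The 8 macrophage markers summed to between 28.5 and 50.7 FPKM in CT-CTD and to between 53.4 and 84.9 FPKM in OE-CTD. In CT-WD 1 to 3 they summed to 82.4, 42.9 and 36.7 FPKM and in OE-WD 1 to 4 to 49.0, 78.7, 49.6 and 52.8 FPKM, with none at 0 and Lyz2 the most abundant (23.3 FPKM). Here 7 of the 8 were called higher in OE-CTD than in CT-CTD at the unadjusted level and 0 at the adjusted level (median log2 fold change 0.87), while DESeq2 called 3 and limma 0. All 8 macrophage markers were also higher in CT-WD than in CT-CTD (median 0.58, 2 called at the unadjusted level). In OE-WD against CT-WD 6 were higher (0.12), and in OE-WD against OE-CTD 4 (-0.03). Their interaction median was -0.66, with 0 of 8 higher and 1 called lower at the unadjusted level. The part of either cell type in the S100a6 result was not tested. In whole muscle, fewer or more cells of a type and less or more RNA per cell cannot be told apart.

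Endothelial markers, the cell type in which the transgene was directed, had smaller fold changes in OE-CTD against CT-CTD. The 6 markers summed to 59.5, 58.7 and 59.3 FPKM in CT-CTD 1 to 3 and to 76.4, 78.7, 74.4 and 62.2 FPKM in OE-CTD 1 to 4, with Cdh5 the most abundant (24.2 FPKM) and none at 0. All 6 were higher in OE-CTD, with a median log2 fold change of 0.30. They summed to 70.8, 62.8 and 63.8 FPKM in CT-WD 1 to 3 and to 79.5, 79.6, 83.4 and 75.9 FPKM in OE-WD 1 to 4 (median log2 fold change 0.35). On each diet the sum of every OE library was above that of every CT library. Among single genes tested, 15.5% on CTD and 11.6% on WD had genotype groups that did not overlap. In these 2 comparisons 0 of the 6 markers were called by edgeR at either level or by DESeq2 or limma. Their part in the S100a6 result was not tested. Slow fibre markers had a median log2 fold change of 0.24 in the same comparison, fast fibre markers 0.03, erythroid markers -0.03 and muscle markers 0.05, and 0 genes of these 4 lists were called at either level by edgeR or by DESeq2 or limma. Of the 6 adipocyte markers (median -0.19), 1 was called higher and 1 lower at the unadjusted level, against 7.12% of all genes tested. At the adjusted level edgeR, DESeq2 and limma called 0. Summed levels over the 14 libraries were between 1173 and 1746 FPKM for slow fibre markers (most abundant Tnnc1) and between 35001 and 48904 FPKM for fast fibre markers (Tnnt3). They were between 170.5 and 523.0 FPKM for erythroid markers (Hba-a1), between 59.2 and 230.1 FPKM for adipocyte markers (Fabp4) and between 42259 and 57804 FPKM for muscle markers (Acta1).

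The genes whose log2 CPM followed S100a6 most closely over the 14 libraries were Ckap4 (Pearson r = 0.968, Spearman rho = 0.881), Gas7 (r = 0.960, rho = 0.934) and Asap3 (r = 0.953, rho = 0.881). Without the 2 libraries farthest from the median, r was 0.945, 0.954 and 0.912. These values describe genes measured in the same libraries, at the same depth, and chosen as the highest among 15458. Among the members, S100a6 had its highest r with S100a10 (0.601, rho = 0.618) and went against S100a1 (r = -0.48, rho = -0.38). That order turned when group means were removed, with r of 0.840 for S100a14, 0.604 for S100b and 0.395 for S100a10.

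S100a10 (ENSMUSG00000041959, protein coding, chromosome 3, 93555080 to 93564643, plus strand) forms a complex with annexin A2 (Anxa2) at the plasma membrane. Its level was 17.3, 16.1 and 18.7 CPM across CT-CTD 1 to 3 and 24.6, 16.3 and 28.3 CPM across CT-WD 1 to 3. It was 25.6, 26.4, 28.8 and 16.6 CPM across OE-CTD 1 to 4 and 22.3, 23.8, 21.3 and 21.2 CPM across OE-WD 1 to 4. CT-CTD was uniformly low, and OE-CTD 4 and CT-WD 2 were within its range, apart from the other libraries of their groups. OE-WD lay above all of CT-CTD and within the range of CT-WD and OE-CTD.

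S100a10 had 17.4 ± 1.32 CPM (SD, n = 3) for CT-CTD and 24.4 ± 5.33 CPM (SD, n = 4) for OE-CTD, a log2 fold change of 0.49 with a 95% interval of 0.11 to 0.87. The adjusted p was 0.183 in edgeR's quasi-likelihood test with Benjamini-Hochberg adjustment, and the fold was under 1.5, so it was not called. Without OE-CTD 4 the log2 fold change was 0.63 with an adjusted p of 0.0412, which passed the call rule, and with OE-CTD 4 and OE-WD 4 both left out, chosen after seeing the data, it was 0.63 with 0.0434 in the same test. Both fits keep only OE-CTD 1 to 3, whose descriptions share a number, so separate animals are not documented behind these calls. Without OE-CTD 3 the log2 fold change was 0.40. CT-WD had 23.0 ± 6.16 CPM (SD, n = 3). Its log2 fold change against CT-CTD was 0.41, with an adjusted p of 0.682 in edgeR's test with Benjamini-Hochberg adjustment, and it was 0.24 with CT-WD 3 left out. With CT-WD 2 left out it was 0.60 and was called at the unadjusted level only. The interaction was -0.55, with an unadjusted p of 0.0450 and an adjusted p of 0.842 in edgeR's test. It was not called, although without CT-CTD 3 (-0.60), CT-WD 2 (-0.74) or OE-CTD 4 (-0.69) it was called at the unadjusted level, and in no setting at the adjusted level. Without CT-WD 3 it was -0.38. The differences on WD between OE and CT (-0.06) and in OE between diets (-0.14) were within the spread between libraries.

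Genes most like S100a10 over the 14 libraries were Tagln2 (r = 0.940, rho = 0.903), Nectin1 (r = 0.902, rho = 0.837) and Slc25a24 (r = 0.892, rho = 0.899). Without the 2 libraries farthest from the median r was 0.918, 0.888 and 0.854.

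S100a1 (ENSMUSG00000044080, protein coding, chromosome 3, 90511034 to 90514392, minus strand) is the muscle member of the family. It had 79.6, 91.8 and 103.5 CPM across CT-CTD 1 to 3 and 88.5, 100.1 and 117.1 CPM across CT-WD 1 to 3. It had 101.1, 95.1, 86.1 and 77.4 CPM across OE-CTD 1 to 4 and 99.7, 81.4, 84.7 and 72.1 CPM across OE-WD 1 to 4. All 4 groups overlapped, and the lowest values of OE were in OE-CTD 4 and OE-WD 4, the libraries that stood apart in their counts.

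The group means of S100a1 were 91.6 ± 12.0 CPM (SD, n = 3) for CT-CTD, 101.9 ± 14.4 CPM (SD, n = 3) for CT-WD, 90.0 ± 10.4 CPM (SD, n = 4) for OE-CTD and 84.5 ± 11.5 CPM (SD, n = 4) for OE-WD. The largest difference was between OE-WD and CT-WD, a log2 fold change of -0.27 with a 95% interval of -0.54 to 0.00 and an adjusted p of 0.302 in edgeR's test with Benjamini-Hochberg adjustment. In the other comparisons the log2 fold change was 0.15 for diet in CT, -0.09 for diet in OE and -0.03 for OE-CTD against CT-CTD. S100a1 was higher in CT-WD than in the CT-CTD library of the same number in all 3 pairs, as were S100a6, S100a10 and 14.3% of all genes tested, and its diet difference in CT was called in no setting. With standard errors between 0.119 and 0.138 in these comparisons, S100a1 had the narrowest intervals of the members, and none of them reached a fold of 1.5. Its closest genes over the 14 libraries were Spryd4 (r = 0.928, rho = 0.93), Ndufa4 (r = 0.922, rho = 0.93) and Atp5f1 (r = 0.920, rho = 0.916), and the last 2 encode mitochondrial proteins of the respiratory chain and ATP synthase. Without the 2 libraries farthest from the median r was 0.872, 0.861 and 0.864.

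S100a13 (ENSMUSG00000042312, protein coding, chromosome 3, 90514435 to 90524581, plus strand) had 7.03, 7.57 and 6.15 CPM across CT-CTD 1 to 3 and 5.35, 6.42 and 9.60 CPM across CT-WD 1 to 3. It had 9.16, 9.79, 6.88 and 8.06 CPM across OE-CTD 1 to 4 and 6.53, 7.50, 7.52 and 7.75 CPM across OE-WD 1 to 4. The groups overlapped throughout, and CT-WD held both the lowest and a near highest library. The log2 fold change was 0.29 for OE-CTD against CT-CTD (95% interval -0.09 to 0.68), -0.21 for diet in OE and 0.04 both for diet in CT and for OE-WD against CT-WD. Its closest gene was Gm19410 (r = 0.868, rho = 0.793), a lower value than the highest of each other tested member.

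S100b (ENSMUSG00000033208, protein coding, chromosome 10, 76253853 to 76261159, plus strand) had 93, 19 and 43 counts in CT-CTD 1 to 3 and 49, 36 and 31 counts in CT-WD 1 to 3. It had 57, 42, 59 and 28 counts in OE-CTD 1 to 4 and 25, 89, 61 and 30 counts in OE-WD 1 to 4. High and low libraries occurred in every group but CT-WD. Its log2 fold changes were between -0.34 and 0.28 in the comparisons of 2 groups, with standard errors of 0.456 to 0.494 where CT-CTD entered, so these differences were smaller than the spread between libraries allows to be told from 0. For OE-CTD against CT-CTD it was -0.15, and the value went from -0.53 without CT-CTD 2 to 0.56 without CT-CTD 1. For CT-WD against CT-CTD it went from -0.72 to 0.37 with the same libraries left out.

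Markers of Schwann cells, which ensheath peripheral nerve, were high or low in many of the same libraries as S100b. The 5 markers summed to 65.9, 23.2 and 46.2 FPKM in CT-CTD 1 to 3 and to 45.2, 36.5 and 42.8 FPKM in CT-WD 1 to 3. They summed to 59.8, 56.1, 64.5 and 25.4 FPKM in OE-CTD 1 to 4 and to 33.5, 61.6, 64.3 and 29.9 FPKM in OE-WD 1 to 4, with Pmp22 the most abundant (32.8 FPKM) and none at 0. CT-CTD 1, OE-WD 2 and OE-WD 3 were high and CT-CTD 2, OE-CTD 4, OE-WD 1 and OE-WD 4 low for both. OE-CTD 2 differed, with low S100b (1.38 CPM) beside a high marker sum. The genes closest to S100b over the 14 libraries were Cldn19 (r = 0.898, rho = 0.873), the Schwann cell gene Prx (r = 0.873, rho = 0.820) and Gramd2 (r = 0.868, rho = 0.903), with r of 0.850, 0.814 and 0.817 without the 2 libraries farthest from the median. Of the 5 markers, 0 were called in any comparison at either level by edgeR, or by DESeq2 or limma, and their part in the S100b values was not tested.

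S100a14 is a protein-coding gene on the plus strand (ENSMUSG00000042306, chromosome 3, 90526856 to 90528837) and had 26, 1 and 4 counts in CT-CTD 1 to 3 and 33, 0 and 7 counts in CT-WD 1 to 3. It had 8, 11, 20 and 0 counts in OE-CTD 1 to 4 and 8, 38, 33 and 21 counts in OE-WD 1 to 4. Each group but OE-WD held libraries near 0, and the CT libraries with the replicate number 1 were the highest of their groups. The intervals were accordingly wide. For OE-WD against OE-CTD the log2 fold change was 1.34 with a 95% interval of -0.59 to 3.27, or 2.01 without OE-CTD 3. For OE-CTD against CT-CTD it was -0.11 with an interval of -2.33 to 2.10. The sign of that value turned on single libraries, from -0.78 without OE-CTD 3 to 1.85 without CT-CTD 1. For CT-WD against CT-CTD it went from -1.34 without CT-WD 1 to 2.30 without CT-CTD 1, and for OE-WD against CT-WD it was 0.89, or 2.57 without CT-WD 1 and 0.35 without CT-WD 2.

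Epidermal and hair follicle markers were high in many of the libraries high in S100a14. The 12 markers summed to 31.5, 3.20 and 7.28 FPKM in CT-CTD 1 to 3 and to 59.8, 7.75 and 6.97 FPKM in CT-WD 1 to 3. They summed to 11.2, 21.96, 25.0 and 1.98 FPKM in OE-CTD 1 to 4 and to 10.7, 42.3, 74.6 and 43.1 FPKM in OE-WD 1 to 4. Keratin 5 (Krt5), a basal epidermal keratin and the most abundant of them (5.02 FPKM), had 465 counts in CT-CTD 1, 786 in CT-WD 1, 723 in OE-WD 3 and 0 in OE-CTD 4. OE-CTD 4, with 0 counts of S100a14, also had 8 of the 12 markers at 0, whereas OE-CTD 3, OE-WD 3 and OE-WD 4 had none of the 12 at 0. CT-WD 2, the other library with 0 counts of S100a14, had 44 counts of Krt5 and only 3 of the 12 markers at 0. Between OE-WD and OE-CTD, 5 of the 11 markers tested were called higher at the unadjusted level in edgeR's test (median log2 fold change 1.60). At the adjusted level edgeR, DESeq2 and limma called 0. Of all genes tested 1.37% were called at the unadjusted level there. Among the 11 markers Krt25, Krt71 and Tchh passed the filter only through OE-CTD 3, OE-WD 3 and OE-WD 4, where they are high. Calls of these genes therefore carry no weight. The genes closest to S100a14 over the 14 libraries were Trim29 (r = 0.955, rho = 0.991), the desmosomal gene Dsg1a (r = 0.946, rho = 0.974) and the keratin gene Krt17 (r = 0.944, rho = 0.937). Without the 2 libraries farthest from the median r was 0.932, 0.941 and 0.902. The part of epidermal RNA in the S100a14 values was not tested.

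**Figure D3:**
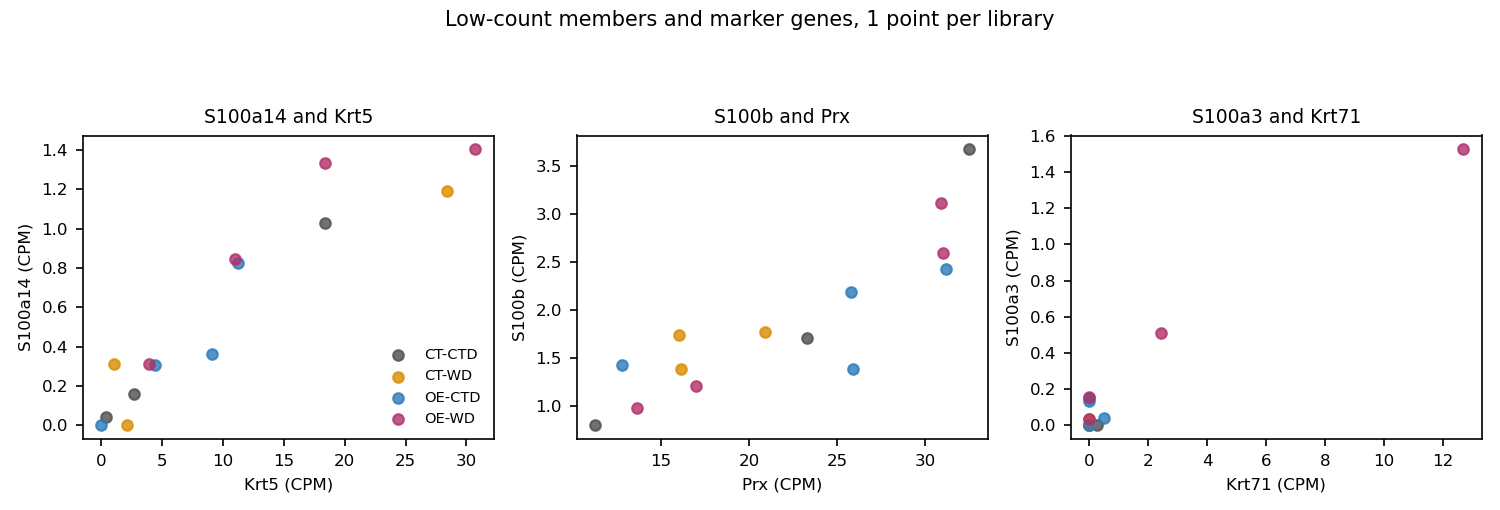
Each panel sets the CPM of a low-count member on the vertical axis against the CPM of a marker gene on the horizontal axis, with 1 point for each of the 14 libraries coloured by group. S100a14 is at 0 in OE-CTD 4, where Krt5 is also at 0, and in CT-WD 2, where Krt5 is not. S100b lies highest (3.68 CPM) in CT-CTD 1 with the highest Prx (32.5 CPM), and S100a3 and the hair keratin gene Krt71 are both highest in OE-WD 4 (1.53 and 12.7 CPM).

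S100a3 (ENSMUSG00000001021, plus strand of chromosome 3, 90560578 to 90602702, protein coding) was at 0 counts throughout CT-CTD and had 1, 0 and 0 counts in CT-WD 1 to 3. It had 0, 4, 1 and 3 counts in OE-CTD 1 to 4 and 4, 1, 12 and 38 counts in OE-WD 1 to 4. Most of its counts were therefore in OE-WD 4, and OE-WD 1 to 3 overlapped OE-CTD. Krt71, a keratin of the inner root sheath of hair follicles, had 57 counts in OE-WD 3 and 316 in OE-WD 4, with 7 in CT-CTD 3, 12 in OE-CTD 3 and 0 in the other 10 libraries. Krt25 and Krt27, of the same sheath, had at most 237 and 171 counts, in OE-WD 4, and Tchh, which encodes trichohyalin, had 1, 3, 68 and 317 counts in OE-WD 1 to 4. OE-WD 3 and OE-WD 4 were the highest libraries for all of these genes and for S100a3.

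Summed over libraries, S100a3 had 55 counts in OE-WD and 1 in CT-WD. Relative to total counts adjusted by TMM factors this was a ratio of 38.0 with an exact 95% interval of 6.54 to 1527, which covers counting error and not the spread between libraries. Without OE-WD 4 the sums were 17 and 1 counts and the ratio 15.5 (2.43 to 648), and without CT-WD 1 the CT-WD sum was 0. Against OE-CTD, with 8 counts, the ratio was 6.72 (3.18 to 16.3), and 2.74 (1.12 to 7.34) without OE-WD 4. Without the filter on low counts S100a3 was called in OE-WD against CT-WD (adjusted p = 0.0340 in edgeR's test with Benjamini-Hochberg adjustment) in a fit that called 401 genes in all. In the 6 fits that left out a CT library S100a3 passed the filter only through OE-WD 3 and OE-WD 4, where it is high, so calls at the unadjusted level there carry no weight. Of the 11 hair follicle and epidermis markers tested, 3 were called higher in OE-WD than in CT-WD at the unadjusted level in edgeR's test. At the adjusted level edgeR called 0, while DESeq2 called 1 and limma 0. Of all genes tested 5.74% were called at the unadjusted level there. Among these markers Krt25, Krt71 and Tchh passed the filter only through OE-CTD 3, OE-WD 3 and OE-WD 4, where they are high. Calls of these genes therefore carry no weight. The part of hair follicle and epidermis RNA in the S100a3 counts was not tested.

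S100a8 (ENSMUSG00000056054, chromosome 3, 90668978 to 90670035, plus strand) and S100a9 (ENSMUSG00000056071, chromosome 3, 90692632 to 90695721, minus strand) encode the subunits of calprotectin, both protein coding. S100a8 had 3, 1 and 1 counts in CT-CTD 1 to 3, 16, 0 and 0 in CT-WD 1 to 3, 1, 4, 5 and 1 in OE-CTD 1 to 4 and 11, 4, 0 and 6 in OE-WD 1 to 4. S100a9 had 0, 0 and 4 counts in CT-CTD 1 to 3, 18, 2 and 4 in CT-WD 1 to 3, 7, 5, 0 and 0 in OE-CTD 1 to 4 and 7, 5, 3 and 5 in OE-WD 1 to 4. CT-WD 1 was the highest library for both. Between CT-WD and CT-CTD the ratio of the summed counts was 6.30 (exact 95% interval 2.16 to 25.0) for S100a9 and 2.58 (0.613 to 12.4) without CT-WD 1. It was 4.16 (1.43 to 16.5) without CT-CTD 1, and CT-CTD 3 held all the S100a9 counts of its group. For S100a8 it was 3.36 (1.18 to 11.7), or 5.54 (1.30 to 49.7) without CT-CTD 1, and without CT-WD 1 the sums were 0 counts in CT-WD and 5 in CT-CTD. For OE-WD against CT-WD the S100a8 sums were 21 and 16 counts, a ratio of 0.906 (0.451 to 1.86). Without CT-WD 1 they were 21 and 0, and without OE-WD 1 the ratio was 0.576 (0.234 to 1.35). For OE-WD against OE-CTD the S100a8 ratio was 1.86 (0.860 to 4.28), and it went from 1.18 (0.451 to 3.07) without OE-WD 1 to 2.59 (1.01 to 7.85) without OE-CTD 3.

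Of the 12 neutrophil markers, Ly6g was at 0 in all 14 libraries, Camp in 13 and Mpo in 12, whereas Mmp9, Lcn2 and Csf3r had counts in every library and passed the filter. Their summed level was between 0.516 and 1.30 FPKM, highest in CT-WD 1, with Mmp9 (0.316 FPKM) and Lcn2 (0.253 FPKM) the most abundant. In OE-CTD against CT-CTD, 1 of the 3 tested was called higher at the unadjusted level, against 7.12% of all genes tested. At the adjusted level 0 were called in any comparison by edgeR, or by DESeq2 or limma.

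S100a4 (ENSMUSG00000001020, protein coding, chromosome 3, 90603771 to 90606045, plus strand) had 1, 3 and 0 counts in CT-CTD 1 to 3, 2, 5 and 1 in CT-WD 1 to 3, 0, 5, 5 and 1 in OE-CTD 1 to 4 and 0, 4, 2 and 0 in OE-WD 1 to 4. Of its 584 exonic bases, 302 (51.7%) are also exon of Gm42674 on the same strand (ENSMUSG00000105518, chromosome 3, 90601904 to 90605885), which had 0 counts in all 14 libraries. S100a3 shares 144 of its 5660 exonic bases (2.54%) with Gm42674 and 117 (2.07%) with Gm23464 on the opposite strand. How reads over more than 1 gene were counted, and whether strand was used, is not given in the sources used here. The low counts of S100a4, and to a lesser extent those of S100a3, are uncertain for that reason. The other 8 members share no exonic base with another gene in GENCODE M21.

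Members of very different levels lie close together. Of the 10, 9 lie on chromosome 3 within 3054 kb, and 8 of them, from S100a1 to S100a9, within 184.7 kb, while S100b lies on chromosome 10. Well measured and low-count members are interspersed along this stretch. S100a13 (11.5 FPKM) ends 2274 bases before S100a14 (0.366 FPKM), and S100a6 (25.3 FPKM) begins 1101 bases after S100a5, which itself begins 2477 bases after S100a4 (0.156 FPKM). S100a1 and S100a13 are transcribed away from each other with 42 bases between them.

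**Figure D4:**
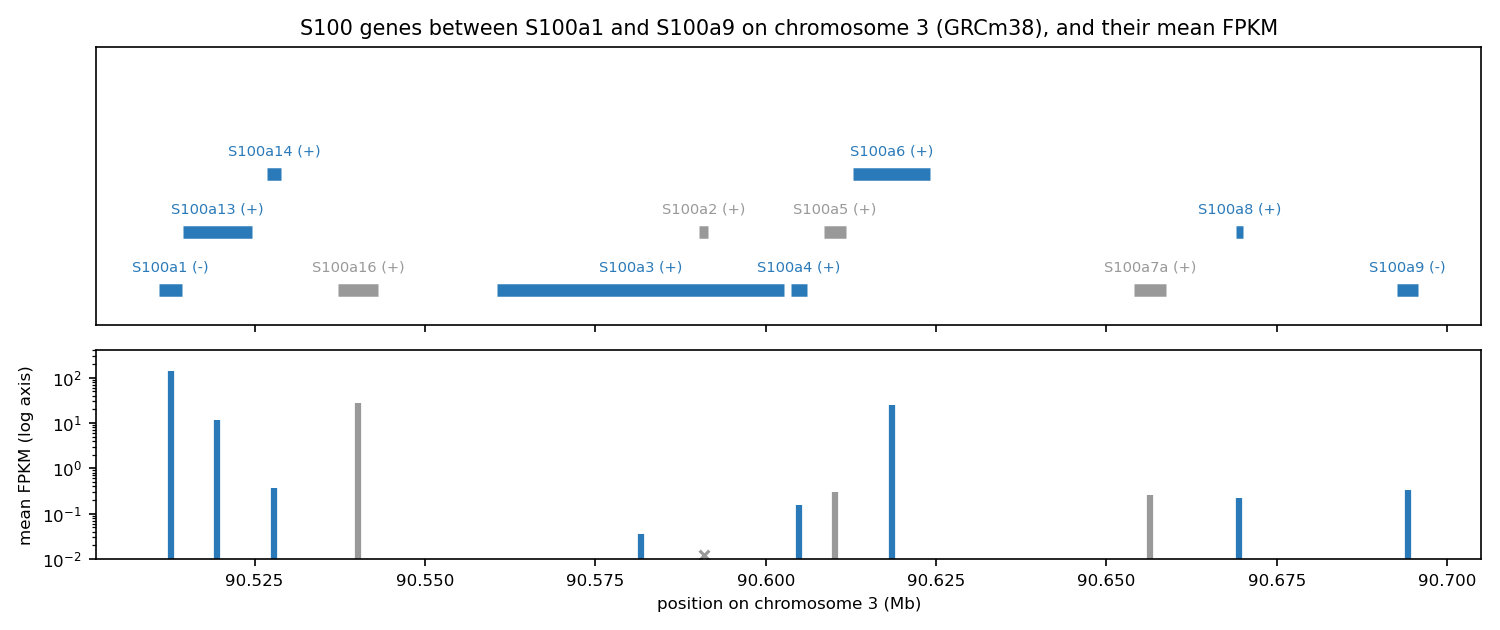
The upper panel maps the S100 genes from S100a1 to S100a9 on chromosome 3 of GRCm38 (position in Mb, strand in brackets, members in blue and other S100 genes in grey), and the lower panel gives each gene's mean FPKM over the 14 libraries on a log axis. S100a6 (25.3 FPKM) lies beside S100a4 and S100a5, both under 1 FPKM, and S100a1 (143.8 FPKM) is the highest, while the cross marks S100a2, which had 0 counts.

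The interval between S100a1 and S100a13 is shown because it separates 2 well measured genes that differ in level and pattern. It is chr3:90514393-90514434 of GRCm38.p6, the bases between the genes as listed in GENCODE M21, taken from the RefSeq promoter window of S100a13 and written 5′ to 3′ on the plus strand. In that table the window before S100a1 begins at 90514331, so the RefSeq start of S100a1 lies inside the gene as listed and not at the end of the interval. Its GC content is 54.8%.

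S100a1 to S100a13: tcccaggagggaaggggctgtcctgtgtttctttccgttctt

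Per length, S100a1 was the more abundant of the pair in every library, with 115.6 to 185.2 FPKM against 8.09 to 14.9 FPKM for S100a13. Over the 14 libraries their log2 CPM had a Pearson r of 0.151 and a Spearman rho of -0.04.

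Of the other S100 genes, 7 of the 8 listed are in the count table and 3 were tested. S100a11, a member that binds annexin A1 and lies beside S100a10, was well measured, with 10.7, 9.20 and 7.98 CPM across CT-CTD 1 to 3 and 14.7, 10.6 and 11.1 CPM across CT-WD 1 to 3. It had 15.4, 16.2, 18.5 and 15.6 CPM across OE-CTD 1 to 4 and 13.5, 15.5, 13.6 and 16.8 CPM across OE-WD 1 to 4. As for S100a6, every OE-CTD library was above every CT-CTD library. S100a11 rose in OE-CTD relative to CT-CTD, by a log2 fold change of 0.82 (with a standard error of 0.141 and an adjusted p of 0.00807 in edgeR's test with Benjamini-Hochberg adjustment). Without CT-CTD 3 it was 0.72 with an adjusted p of 0.0607 in the same test, and the call held with each other library left out. S100a16, with 811 to 1259 counts, stayed between 34.98 and 47.7 CPM, and its log2 fold change in that comparison was 0.02. S100a7a, S100a5 and S100g had at most 19, 8 and 12 counts, and S100a2 and S100z had 0 counts in every library. On the FPKM scale S100a11 (28.9) and S100a16 (27.6) were close to S100a6 (25.3), so the listed members do not hold all of the S100 genes that muscle expressed.

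The fused-type genes, long genes of skin and hair that carry an S100 domain, were listed because they share the locus and the tissue of S100a3 and S100a14. Of 7, 2 were tested, and none was called at the adjusted level by edgeR. At the unadjusted level Flg2 was called higher in CT-WD than in CT-CTD (log2 fold change 3.44, adjusted p = 0.630 in edgeR's quasi-likelihood test with Benjamini-Hochberg adjustment). There 3.05% of all genes tested were called. Tchh was called higher at that level in OE-WD than in OE-CTD (3.14) and than in CT-WD (5.45, adjusted p = 0.118 in the same test). In those comparisons 1.37% and 5.74% of all genes were called. Tchh passed the filter only through OE-CTD 3, OE-WD 3 and OE-WD 4, where it is high, so its calls carry no weight. DESeq2 called 1 of the fused-type genes in OE-WD against CT-WD at the adjusted level, and limma called 0. Most of the Tchh counts were in OE-WD 4, as for S100a3, and 44 of the Flg2 counts of CT-WD were in CT-WD 1, with 1 and 4 in the others.

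Genes of receptors through which secreted S100 proteins act, and of signalling proteins, were not called. The receptor genes listed were Ager, Tlr4, Tlr2, Cd36 and Bsg, and the signalling genes Myd88, Irak4, Traf6, Rela and Nfkb1. Of these 10 genes, 9 were tested, and 0 were called in any comparison at either level by edgeR, or by DESeq2 or limma at the adjusted level. Ager, which encodes the receptor RAGE, had only 3 to 20 counts and was not tested. Tlr4 had 2.69, 2.47 and 2.66 CPM across CT-CTD 1 to 3 and 3.54, 1.84 and 8.0 CPM across CT-WD 1 to 3, so that CT-WD 3 alone was high. Its log2 fold change between them was 0.77 (adjusted p = 0.729 in edgeR's test with Benjamini-Hochberg adjustment). Tlr2 had means of 0.778 CPM for CT-CTD and 1.41 CPM for OE-CTD, and 0.891 CPM for CT-WD and 1.59 CPM for OE-WD. Its log2 fold changes between genotypes were 0.85 (95% interval -0.14 to 1.84) on CTD and 0.80 (-0.17 to 1.77) on WD, neither called. The most abundant of the list was Bsg, which encodes basigin, with a mean of 332.6 FPKM.

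Binding partners of S100 proteins inside the cell included abundant muscle genes, led by the calcium pump gene Atp2a1 with a mean of 9646 FPKM. Of 22 listed, 19 were tested, and 2 were called at the adjusted level in OE-CTD against CT-CTD, Anxa2 and Anxa5, both higher, with 3 at the unadjusted level, against 1.91% and 7.12% of all genes. In the other comparisons 0 were called at either level by edgeR, or by DESeq2 or limma at the adjusted level. The median of the 19 was -0.02 in OE-CTD against CT-CTD and 8 of them were higher.

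Anxa2, the partner of S100a10, had 35.1, 29.9 and 28.7 CPM across CT-CTD 1 to 3 and 53.4, 29.1 and 46.2 CPM across CT-WD 1 to 3. It had 58.8, 56.4, 70.8 and 52.4 CPM across OE-CTD 1 to 4 and 51.4, 63.8, 53.5 and 59.6 CPM across OE-WD 1 to 4. CT-WD 2 was as low as CT-CTD for Anxa2, as it was for S100a10 and S100a6. Anxa2 rose in OE-CTD relative to CT-CTD by a log2 fold change of 0.93 (with a standard error of 0.166 and an adjusted p of 0.00990 in edgeR's test with Benjamini-Hochberg adjustment). In the same test its adjusted p was 0.0557 without CT-CTD 2 (log2 fold change 0.90) and 0.0675 without CT-CTD 3 (0.87). Anxa5 rose to 35.8 ± 2.41 CPM (SD, n = 4) in OE-CTD from 18.0 ± 2.18 CPM (SD, n = 3) in CT-CTD. Its log2 fold change was 0.99 (with a standard error of 0.142 and an adjusted p of 0.00575 in edgeR's test with Benjamini-Hochberg adjustment), and its call held with each library left out. Anxa1, the partner of S100a11, had a log2 fold change of 0.81 with an adjusted p of 0.0805 in that test, and was called without CT-CTD 1 (1.03, 0.0470), without OE-CTD 4 (0.97, 0.0264) and by DESeq2. The fit without OE-CTD 4 keeps only OE-CTD libraries that share a number. Anxa1 was also called without the filter on low counts, and was not called in 18 of the 23 settings. Its adjusted p was 0.290 without CT-CTD 2 and 0.298 without CT-CTD 3 in edgeR's test with Benjamini-Hochberg adjustment. Cacybp, the partner of S100a6, had a log2 fold change of -0.19 and Ryr1, the ryanodine receptor that S100a1 regulates, had -0.09, and neither was called. Annexins are also abundant in fibroblasts and macrophages, whose markers were also higher in OE-CTD at the unadjusted level, and the part of these cells in the annexin values was not tested.

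Sequences upstream of the starts of S100a6 and S100a11 are shown because both genes rose in OE-CTD relative to CT-CTD. They are the 250 bases before the start in the RefSeq promoter table (GRCm38.p6), chr3:90612644-90612893 for S100a6 and chr3:93520246-93520495 for S100a11, each 5′ to 3′ on the plus strand, on which both genes lie. Capitals mark matches to the motifs searched on both strands, CACGTG (the E-box that Myc and related factors bind), TGANTCA (the site of AP-1 factors) and TATAAA (a core promoter element), none of which overlaps another here.

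S100a6: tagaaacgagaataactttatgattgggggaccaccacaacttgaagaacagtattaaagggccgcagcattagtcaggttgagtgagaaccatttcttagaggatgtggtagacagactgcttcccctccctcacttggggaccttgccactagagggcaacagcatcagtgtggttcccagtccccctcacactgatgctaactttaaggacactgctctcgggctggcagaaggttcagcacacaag
S100a11: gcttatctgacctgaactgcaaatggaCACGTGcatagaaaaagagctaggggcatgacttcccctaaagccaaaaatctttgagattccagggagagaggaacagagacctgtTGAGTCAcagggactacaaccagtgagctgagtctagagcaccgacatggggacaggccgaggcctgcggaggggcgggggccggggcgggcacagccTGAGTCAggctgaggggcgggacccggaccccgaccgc

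The S100a6 window holds none of the 3 motifs and has a GC content of 50%. The S100a11 window holds CACGTG 223 bases before the start and TGANTCA 136 and 38 bases before it, with a GC content of 60%. Among 32851 promoters of the table, the 250 upstream bases held CACGTG in 6.02%, TGANTCA in 6.75% and TATAAA in 12.4%. A match is a description of the letters and not of binding, and a window without a match says nothing of the factor. Of the 10 members, 8 are in the promoter table, and S100a10 and S100a14 are not. No upstream window of the 8 held CACGTG or TGANTCA, and TATAAA occurred 30 bases before the start of S100a8, 31 before that of S100a4 and 52 before 1 of the 4 starts of S100a3. The well measured S100a1, S100a6 and S100a13 and the low-count S100a9 and S100b had no TATAAA match.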

How the data were processed

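Skeletal muscle RNA of 14 libraries in 4 groups was analysed from the deposited tables. The count values were deposited as raw reads per gene, which the authors made with HISAT2 2.0.5 and featureCounts 1.5.0-p3 on mm10, per the submitters' processing notes. The FPKM values were made by the authors from the same libraries, and their implied library total was between 79.93% and 97.97% of the summed counts. How reads over several genes and strand were handled is not given in the sources used here.

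Genes were taken by exact symbol, and the members and the marker lists were chosen with earlier results of these data known. Marker lists covered neutrophils, macrophages, hair follicle and epidermis, Schwann cells, adipocytes, fibroblasts and tendon, slow and fast fibres, endothelium, erythroid cells and muscle. Further lists held other S100 genes, fused-type genes, receptor and signalling genes, and binding partners. A further gene first listed with the Schwann cell markers is not reported here and was taken out of that list and its sums. Counts were fitted with edgeR 4.0.16 in R 4.3.3 (TMM factors, filterByExpr, quasi-likelihood F test, 4-group model), with Benjamini-Hochberg adjustment over 15458 genes, and the biological coefficient of variation was 17.0%. The scripts were tested on simulated data. Correlations used log2 CPM with a prior count of 2. Sums of low counts were compared with exact conditional binomial intervals at 95%.

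The 22 alternatives were DESeq2 1.42.0, RLE factors, no filter on low counts, limma 3.58.1 on log2(FPKM + 1) and log2(FPKM + 0.1), the replicate number as a block, only the groups compared, each of 14 libraries left out, and OE-CTD 4 with OE-WD 4 left out, the last chosen after seeing the data. Between CT-WD and CT-CTD, deviations from the group mean of libraries with the same replicate number correlated at 0.385, 0.123 and 0.203, so these were taken as pairs. The main test does not pair them, and only the replicate block does. That pairing comes from the replicate numbers in the labels and from the data, and no shared animal or litter is documented. Positions and exons came from GENCODE M21 and promoters from RefSeq (GRCm38.p6). Figures were made with Python 3.11.15, pandas 2.3.3 and matplotlib 3.10.9.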

Additional observations from a re-analysis of the deposited data

How the results depend on the processing

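In OE-CTD against CT-CTD, where 1 member (S100a6) was called, the replicate block called 0 members and 14 genes in all, and leaving out OE-CTD 4 and OE-WD 4 together called 2 (S100a6, S100a10) and 339 genes in all. With 1 library left out the count was between 0 and 2. S100a10 was called only in fits without OE-CTD 4, which keep only OE-CTD libraries that share a number. Same-numbered libraries of that comparison correlated at 0.0465, -0.113 and -0.122, so they share only a number and the block has no documented basis there. In OE-WD against CT-WD, with 0 called, no filter on low counts called 1 (S100a3) and 401 genes in all, and 1 library left out gave between 0 and 1 (S100a6, without CT-WD 1, with 905 genes in all). The other comparisons called 0 members at the adjusted level in every setting, and the block changed no call of a member in CT-WD against CT-CTD, where the pairing was taken to hold. There it called 10 genes in all, where the main fit called 0. The S100a6 interaction under the block was -0.51 (unadjusted p = 0.00898, adjusted p = 0.312 in edgeR's test with Benjamini-Hochberg adjustment) and was called at neither level, in a fit that also pairs the OE libraries. In OE-WD against OE-CTD same-numbered libraries correlated at 0.0711, 0.138, 0.142 and 0.338 and were not taken as pairs, although all were positive. In OE-CTD against CT-CTD the block also lost the calls of Anxa5 (adjusted p = 0.0804), S100a11 (0.0848) and Anxa2 (0.0887), in edgeR's test with Benjamini-Hochberg adjustment.

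At the unadjusted level the calls moved more. For OE-CTD against CT-CTD S100a6 was called in all 23 settings and S100a10 in 3. For OE-WD against CT-WD S100a6 was called in 1, and for OE-WD against OE-CTD S100a14 in 1 (the block, log2 fold change 1.43). S100a3 was called without the filter in these 3 comparisons. In the 6 fits without a CT library it passed the filter only through OE-WD 3 and OE-WD 4, where it is high, so its calls there are not counted. For CT-WD against CT-CTD S100a9 was called without the filter (2.45) and S100a10 without CT-WD 2 (0.60). The interaction called S100a6 in 3 settings and S100a10 in 4, 1 of them with OE-CTD 4 and OE-WD 4 both left out (-0.67).

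The S100a14 interaction of 1.0 reversed to -0.97 without CT-CTD 1 and was 2.68 without CT-WD 1. The cause of these changes was not tested. The muscle of each library and the independence of the OE libraries are not documented, and 6 members were low-count, 4 of them too low to test.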
